A study of Mus musculus with 15 samples.

Results

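The 32 genes described here encode the mitochondrial enzymes and carriers that act late in branched-chain amino acid breakdown and in fatty acid oxidation. They were chosen by name, as the steps that follow the first transamination and decarboxylation of leucine, isoleucine and valine together with the carnitine shuttle and the beta-oxidation spiral. All 32 were found among the 39827 genes read from the count table, and all 32 passed the filter on low counts that kept 15948 genes for testing. No threshold on a measured value was used in the choice, but earlier results of these data were known when it was made. RNA was sequenced from spleen leukemic T cells of mice in 15 libraries, 3 in each of 5 groups, all of them leukemias driven by ΔE-NOTCH1, a truncated and constitutively active NOTCH1. Per the labels, GFP+ Lineage- cKit+ Sca1+ marrow progenitors carrying the retroviral construct had been transplanted into C57BL/6J hosts after lethal irradiation. The groups were WT0 with ERG-245 (Bcat1 wild type, given the BCAT1 inhibitor ERG-245 intraperitoneally in 3 doses of 30 mg per kg with 8 h between them), WT0 with PBS (Bcat1 wild type, vehicle), KO7 and KO3 (Bcat1 knock-out, PBS) and WT6 (Bcat1 wild type, PBS). The labels give PBS as their vehicle, whereas alignment names of the WT0 PBS libraries in the count table contain DMSO. Each number is taken here to name 1 leukemia, although the WT0 groups had different leading T cell receptor beta segments, given below. Ages are not given in the sources used here, and the labels do not say whether the 3 libraries of a group came from separate mice. The p-values below therefore set differences between groups against the spread of libraries within groups, and that spread may be technical.

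BCAT1 transaminates leucine, isoleucine and valine in the cytosol, and the resulting keto acids are decarboxylated in mitochondria to branched acyl-CoA esters. The enzymes below take over from there. Leucine ends as acetyl-CoA and acetoacetate, while valine and part of isoleucine pass through propionyl-CoA to succinyl-CoA. Fatty acids enter by the carnitine shuttle and are shortened in repeated turns of dehydrogenation, hydration, dehydrogenation and thiolysis. Several enzymes serve both routes, and the acyl-CoA dehydrogenases of both hand their electrons to the electron transfer flavoprotein.

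The members were expressed at moderate to high levels throughout. Group means of the library-scaled level (CPM, from TMM-scaled totals) ran between 8.15 CPM, for Eci1 in WT6, and 181 CPM, for Cpt1a in WT0 with PBS, and a member had between 138 and 4609 counts in a library. The median of the members' mean levels was 50.4 CPM, as compared with 20.7 CPM over all genes tested. Within groups the coefficient of variation of a member had a median of 3.26% and reached 12.5%. Scaled to the merged exon length of each gene, the flavoprotein subunits led, with Etfb at 95.5 and Etfa at 71.8 CPM per kb over all groups. Hsd17b10 (62.5 CPM per kb), Hadha (60.3), Hibadh (49.4) and Acadl (46.5) followed. The lowest were Pcca (2.21 CPM per kb), Aldh6a1 (3.04), Mccc1 (4.19) and Acadsb (4.99). The merged exons of Pcca span 11775 bases, which lowers its value per kb. Of the exon bases of Etfb, 59 also belong to Cldnd2 on the same strand.

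Differences between groups were small for most members. The highest group mean exceeded the lowest by a median of 1.38-fold, with Hadha at 1.07-fold and Eci1 at 2.09-fold as the extremes, and 8 members reached 1.5-fold. KO3 had the highest mean of the 5 groups for 15 members and the lowest for 0. WT6 had the lowest mean for 14 members and the highest for 1. These counts were not made over all genes tested, so they do not set the list apart from other genes.

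Promoter sequences were taken from RefSeq (GRCm38.p6), which gave a window of 250 bases before and 50 after the start of 29 members. They are shown for Cpt1a and Slc25a20, which had the largest decreases with ERG-245, for Eci1, which had the largest increase, and for Hadhb, which starts 273 bases from its partner Hadha. The 250 bases before the start are printed, with capitals marking matches of GGGCGG (the GC box), CCAAT and CCGGAAG (an ETS core) on either strand.
Cpt1a, chr19:3323051-3323300, + strand: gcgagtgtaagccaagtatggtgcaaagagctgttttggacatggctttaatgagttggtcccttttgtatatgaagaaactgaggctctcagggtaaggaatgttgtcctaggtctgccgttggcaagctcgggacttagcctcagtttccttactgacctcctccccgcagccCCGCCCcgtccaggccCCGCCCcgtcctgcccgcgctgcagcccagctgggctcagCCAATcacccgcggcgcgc
Slc25a20, chr9:108661886-108662135, + strand: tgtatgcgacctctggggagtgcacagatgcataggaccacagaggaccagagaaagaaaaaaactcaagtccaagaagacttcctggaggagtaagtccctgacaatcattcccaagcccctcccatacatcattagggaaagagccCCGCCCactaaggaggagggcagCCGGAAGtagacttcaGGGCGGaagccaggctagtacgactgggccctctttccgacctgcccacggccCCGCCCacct
Eci1, chr17:24426433-24426682, + strand: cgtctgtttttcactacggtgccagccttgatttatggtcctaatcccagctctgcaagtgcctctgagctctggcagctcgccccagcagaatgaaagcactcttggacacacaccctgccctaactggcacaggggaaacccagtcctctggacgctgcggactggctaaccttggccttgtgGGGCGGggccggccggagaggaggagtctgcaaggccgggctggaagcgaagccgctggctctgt
Hadhb, chr5:30155003-30155252, + strand: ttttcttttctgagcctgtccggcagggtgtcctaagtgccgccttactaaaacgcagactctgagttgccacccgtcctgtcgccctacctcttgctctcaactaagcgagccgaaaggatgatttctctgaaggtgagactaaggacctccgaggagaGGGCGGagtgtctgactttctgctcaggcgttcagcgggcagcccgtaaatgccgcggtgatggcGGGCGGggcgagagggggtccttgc
The Cpt1a window lies at a start downstream of the gene start in the count table, 3322326. GC boxes were found, on either strand, in 21 of the 29 windows (72.4%), against 35.9% of 27025 RefSeq promoter windows of the same length. That background takes every gene with a window, including genes that did not pass the filter on low counts here. CCAAT was present in 51.7% of member windows and 37.9% of all windows. TATAAA was in 0 of 29, against 14.2% of all. The members' windows were also richer in G and C, with a median of 60.3% against 52.7%, and GC boxes and CpG-rich sequence share letters. The hexamer AGGTCA, bound by nuclear receptors, stood in 6 windows (20.7%), those of Acadm, Acadvl, Cpt1a, Echs1, Hibadh and Pcca, against 16% of all. The longer TCAAGGTCA, known from estrogen-related receptors and holding that hexamer, stood in 0 of 29, against 0.407% of all windows. CCGGAAG was in 10.3% of member windows and 9.12% of all, CACGTG (bound by USF and MYC) in 3.45% and 7.24% and TGATGNAA (bound by ATF4) in 3.45% and 4.06%. Divergent gene pairs with starts within 1000 bases accounted for 9 of the 32 members (28.1%), against 14.2% of genes tested. Besides Hadha with Hadhb, they included Acad8 with Thyn1, 71 bases apart, Acadsb with Ikzf5, 83 bases apart, and Mmut with Cenpq, 111 bases apart.

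Libraries held 17441292 to 28902573 counts each and detected 19679 to 20968 genes. Bcat1 stood at 13.3 ± 0.774 CPM in WT0 with ERG-245 (SD, n = 3), 17.8 ± 0.955 CPM in WT0 with PBS, 2.09 ± 0.596 CPM in KO7, 6.95 ± 0.845 CPM in KO3 and 35.2 ± 0.416 CPM in WT6. All 12 markers of leukemic T cells were present, at 0.464% to 0.88% of counts per library. Each group had its own leading T cell receptor beta segment, Trbv16 at 49.9% of Trbv counts in WT0 with ERG-245, Trbv17 at 39.7% in WT0 with PBS, Trbv5 at 79.1% in KO7, Trbv15 at 85.6% in KO3 and Trbv19 at 54.4% in WT6. Erythroid markers took a mean of 4.33% of counts in WT0 with ERG-245, 3.67% in WT0 with PBS, 5.22% in KO7, 1.05% in KO3 and 1.14% in WT6. Of all markers of other cell types, only Ncr1 was at 0 in a group, WT0 with PBS. Since these are bulk samples, fewer cells of a type and less RNA per cell cannot be told apart.

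To evaluate how the oxidation genes stood under BCAT1 inhibition, WT0 with ERG-245 was compared with WT0 with PBS. Cpt1a and Slc25a20 of the carnitine shuttle were lower, while several enzymes of the spiral and of isoleucine and propionyl-CoA breakdown were higher. In edgeR's quasi-likelihood test, 14 of the 32 members were higher with ERG-245 (33.0% of all genes tested were), 8 were lower (32.8% of all genes) and 10 did not pass at an adjusted p under 0.05. The members' median log2 fold change was 0.05, and that of all genes tested was 0.00. Among genes of at least 5 CPM, a level that all 32 members reached, 38.6% were called higher and 36.5% lower. The libraries of 22 members did not overlap between the groups (67.9% of all genes). Called in either direction were 22 members, close to the 65.8% of all genes that were, so the list as a whole did not stand out here.

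**Figure D1:**
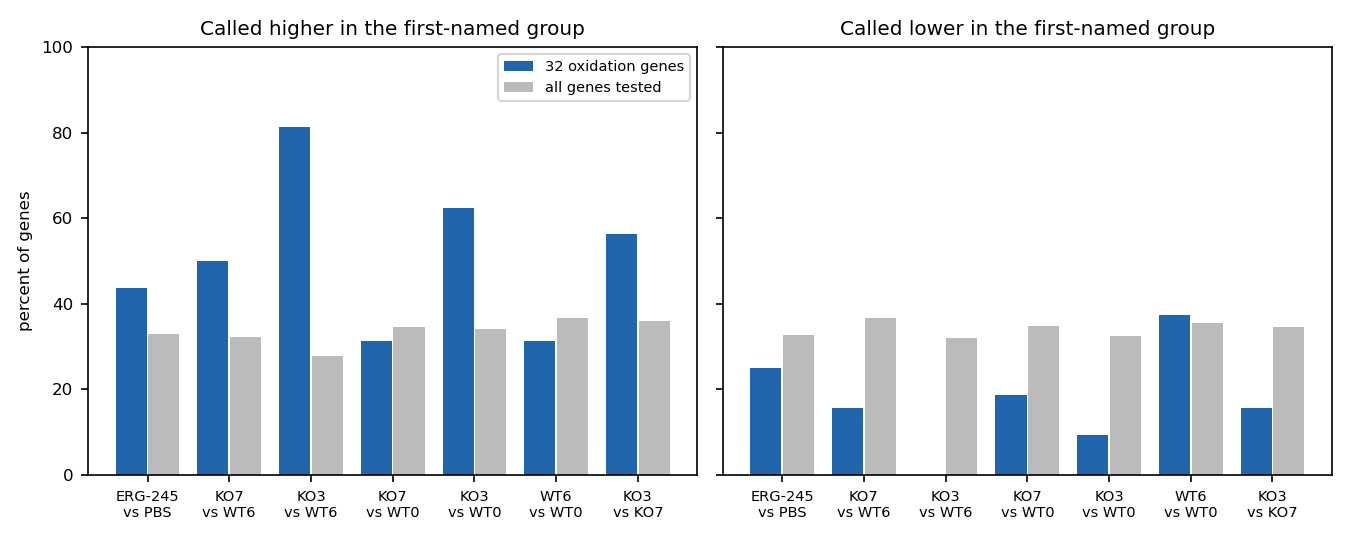
Percent of the 32 oxidation genes (blue) and of all 15948 genes tested (grey) that edgeR called higher (left) or lower (right) in the first-named group of each of 7 comparisons. The oxidation genes exceed the background most in KO3 against WT6, where 26 of 32 were called higher and 0 lower; WT0 in these names is WT0 with PBS.

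Cpt1a, which couples long-chain acyl groups to carnitine at the outer mitochondrial membrane and is the regulated step of entry, lies on chromosome 19 from 3322326 to 3385735 on the + strand. It stood at 83.5, 93.8 and 85.9 CPM in the WT0 ERG-245 libraries and at 180, 180 and 183 CPM in the WT0 PBS libraries. Every library with ERG-245 lay far below every PBS library. The log2 fold change was -1.04 (SE 0.033, edgeR adjusted p = 6.57e-42), the only change of at least 2-fold for a member in any of the 7 comparisons made. WT6, which had no inhibitor, also lay below WT0 with PBS for Cpt1a, at 92.7, 99.1 and 101 CPM, and overlapped the ERG-245 libraries. Slc25a20, the carrier that exchanges acylcarnitine for carnitine across the inner membrane (chromosome 9, 108662136 to 108684642), had 23.5, 22.7 and 24.2 CPM with ERG-245 and 34.4, 31.3 and 35.6 CPM with PBS. These groups did not overlap either (log2 -0.52, SE 0.058, edgeR adjusted p = 1.42e-12). Cpt2, which returns the acyl group to CoA inside the matrix, averaged 19.4 ± 0.144 CPM with ERG-245 and 19.4 ± 0.326 CPM with PBS (SD, n = 3, log2 0.01, edgeR adjusted p = 0.952). The summed level of the 3 shuttle genes was 126 to 136 CPM per library with ERG-245 and 231 to 238 CPM with PBS.

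Among the acyl-CoA dehydrogenases, Acadm, which acts on medium-chain substrates, had 52.8, 53.3 and 51.1 CPM with ERG-245 and 36.2, 38.2 and 39.6 CPM with PBS. All libraries with ERG-245 were higher (log2 0.47, SE 0.048, edgeR adjusted p = 6.99e-14). The short-chain enzyme Acads was higher by log2 0.14 (edgeR adjusted p = 0.00591). The long-chain enzymes Acadl and Acadvl had log2 values of -0.03 and -0.02 and did not pass (edgeR adjusted p = 0.434 and 0.706).

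Of the later steps, Eci1 changed most. Eci1 shifts double bonds of unsaturated intermediates into the position that the spiral can use. It had 15.6, 18.1 and 17.5 CPM in the ERG-245 libraries and 9.77, 8.86 and 7.96 CPM in the PBS libraries, with no overlap (log2 0.93, SE 0.09, edgeR adjusted p = 3.18e-15). Its relative Eci2, which also serves peroxisomes, stood at 104 CPM in both groups. Echs1, the hydratase of short chains, was higher (log2 0.35, edgeR adjusted p = 7.09e-11). Hadh, the dehydrogenase of short-chain hydroxyacyl-CoA, had 54.3, 55.1 and 56 CPM with ERG-245 and 62.5, 66.2 and 68 CPM with PBS. It was thus lower in all 3 libraries (log2 -0.25, SE 0.042, edgeR adjusted p = 2.81e-07). Decr1, a reductase for polyunsaturated chains, was lower by log2 -0.14 (edgeR adjusted p = 0.0265, not called by DESeq2).

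Of the partner subunits of the trifunctional protein, whose genes start 273 bases from each other, only Hadhb passed. Hadhb, the thiolase subunit, averaged 121 ± 3.37 CPM with ERG-245 and 98.3 ± 1.24 CPM with PBS (SD, n = 3, log2 0.30, edgeR adjusted p = 1.34e-12). Hadha, the hydratase and dehydrogenase subunit, averaged 162 ± 4.13 CPM with ERG-245 and 168 ± 1.86 CPM with PBS (log2 -0.06, edgeR adjusted p = 0.087). The electron transfer genes were called in both directions. Etfa and Etfb, which form the flavoprotein, were higher by log2 0.28 and 0.12 (edgeR adjusted p = 9.26e-12 and 0.00229). Etfdh, which passes the electrons on to ubiquinone, had 51.4, 50 and 52.8 CPM with ERG-245 and 63, 59.8 and 61.7 CPM with PBS. It was lower without overlap (log2 -0.26, SE 0.042, edgeR adjusted p = 1.33e-07).

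In isoleucine and valine breakdown, Acat1, the mitochondrial thiolase that cleaves the last isoleucine intermediate and also acts on acetoacetyl-CoA, had 129, 124 and 125 CPM with ERG-245 and 87.7, 88.5 and 91.5 CPM with PBS. The groups lay well apart (log2 0.50, SE 0.033, edgeR adjusted p = 4.35e-23). Hibch and Acadsb were higher by log2 0.38 and 0.28 (edgeR adjusted p = 1.39e-07 and 0.000179). Hibch releases 3-hydroxyisobutyrate in the valine route, and Acadsb is the dehydrogenase of the isoleucine intermediate. Acad8, the valine counterpart of Acadsb, was lower by log2 -0.18 (edgeR adjusted p = 0.0252), a call that DESeq2 did not make. Hibadh and Aldh6a1, the next enzymes of the valine route, did not pass, with log2 values of -0.01 and 0.10 (edgeR adjusted p = 0.916 and 0.347). Hsd17b10, the isoleucine dehydrogenase, which is also a subunit of mitochondrial RNase P, was higher (log2 0.30, edgeR adjusted p = 4.61e-09). It lies on the X chromosome, and Xist stood at 2990 CPM with ERG-245 and 4370 CPM with PBS; its part in the Hsd17b10 value was not tested.

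Pccb, the carboxyltransferase subunit of propionyl-CoA carboxylase, had 50.5, 51 and 54.2 CPM with ERG-245 and 35.2, 37.6 and 36.5 CPM with PBS. It was higher in every library (log2 0.51, SE 0.048, edgeR adjusted p = 1.2e-15). Its biotin-carrying partner Pcca had a log2 value of 0.12 and did not pass (edgeR adjusted p = 0.0837). Mmut, the vitamin B12-dependent mutase that yields succinyl-CoA, was higher by log2 0.24 (edgeR adjusted p = 5.19e-05), and the epimerase Mcee did not pass (log2 -0.04, edgeR adjusted p = 0.719). In the leucine branch, Mccc2, the carboxyltransferase subunit of methylcrotonyl-CoA carboxylase, was higher by log2 0.36 (edgeR adjusted p = 1.59e-05). The biotin-carrying Mccc1 stood at log2 -0.01 (edgeR adjusted p = 0.93). Auh, the hydratase that follows, and Ivd, the isovaleryl-CoA dehydrogenase, were lower by log2 -0.25 and -0.11 (edgeR adjusted p = 3.11e-06 and 0.0418). DESeq2 did not call Ivd.

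Beside these changes, all 18 genes of a list of general mitochondrial content were higher with ERG-245 (33.0% of all genes tested), with a median log2 of 0.26. Among them, the import pore subunit Timm23 averaged 130 ± 1.08 CPM with ERG-245 and 79.8 ± 1.55 CPM with PBS (SD, n = 3). Erythroid markers took 4.14% to 4.49% of counts with ERG-245 and 3.59% to 3.71% with PBS, with 9 of 12 higher and 1 lower. Macrophage and monocyte markers took 0.143% to 0.145% with ERG-245 and 0.111% to 0.113% with PBS, with 8 of 11 higher and 1 lower. Plasma cell markers took 0.334% to 0.342% with ERG-245 and 0.132% to 0.135% with PBS, with 5 of 6 higher and 1 lower. All 9 B cell markers, all 6 platelet markers and 6 of 8 neutrophil markers were lower, at shares of 0.0179% or less in each of these libraries. Markers of the leukemic T cells themselves took 0.464% to 0.471% with ERG-245 and 0.644% to 0.648% with PBS, with 9 of 12 lower and 2 higher. The dominant Trbv segment also differed between the groups, Trbv16 with ERG-245 and Trbv17 with PBS. The part of these markers in the members' values was not tested, and inhibitor and leukemic clone cannot be told apart in this comparison.

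To evaluate the loss of Bcat1, KO7 and KO3 were each compared with WT6. The 2 comparisons share the WT6 libraries. In KO3 most of the list was higher, by less than 2-fold, and 0 members passed as lower. In KO7 Cpt1a, Cpt2, the long-chain dehydrogenase Acadl and the valine enzyme Aldh6a1 were among those higher, while Mccc2, Hibch, Hibadh, Echs1 and Hadh were lower. edgeR called 16 members higher in KO7 (32.2% of all genes tested), 5 lower (36.7% of all genes) and 11 neither way, with a members' median log2 of 0.10 and a median of -0.03 over all genes. In KO3 it called 26 members higher (27.7% of all genes), 0 lower (32% of all genes) and 6 neither way, with a members' median of 0.25 and a median of -0.02 over all genes. At an unadjusted p under 0.05 the number of members lower in KO3 was also 0, and it was 0 by DESeq2. Without WT6 replicate 2 it was 1, Acat1. Among genes of at least 5 CPM, a level that all 32 members reached, 34.4% were called higher in KO7 and 33.4% in KO3. Those called lower were 42.1% in KO7 and 33.8% in KO3. The libraries of 18 members did not overlap between KO7 and WT6 (70.0% of all genes), and those of 28 did not between KO3 and WT6 (62.7% of all genes).

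**Figure D2:**
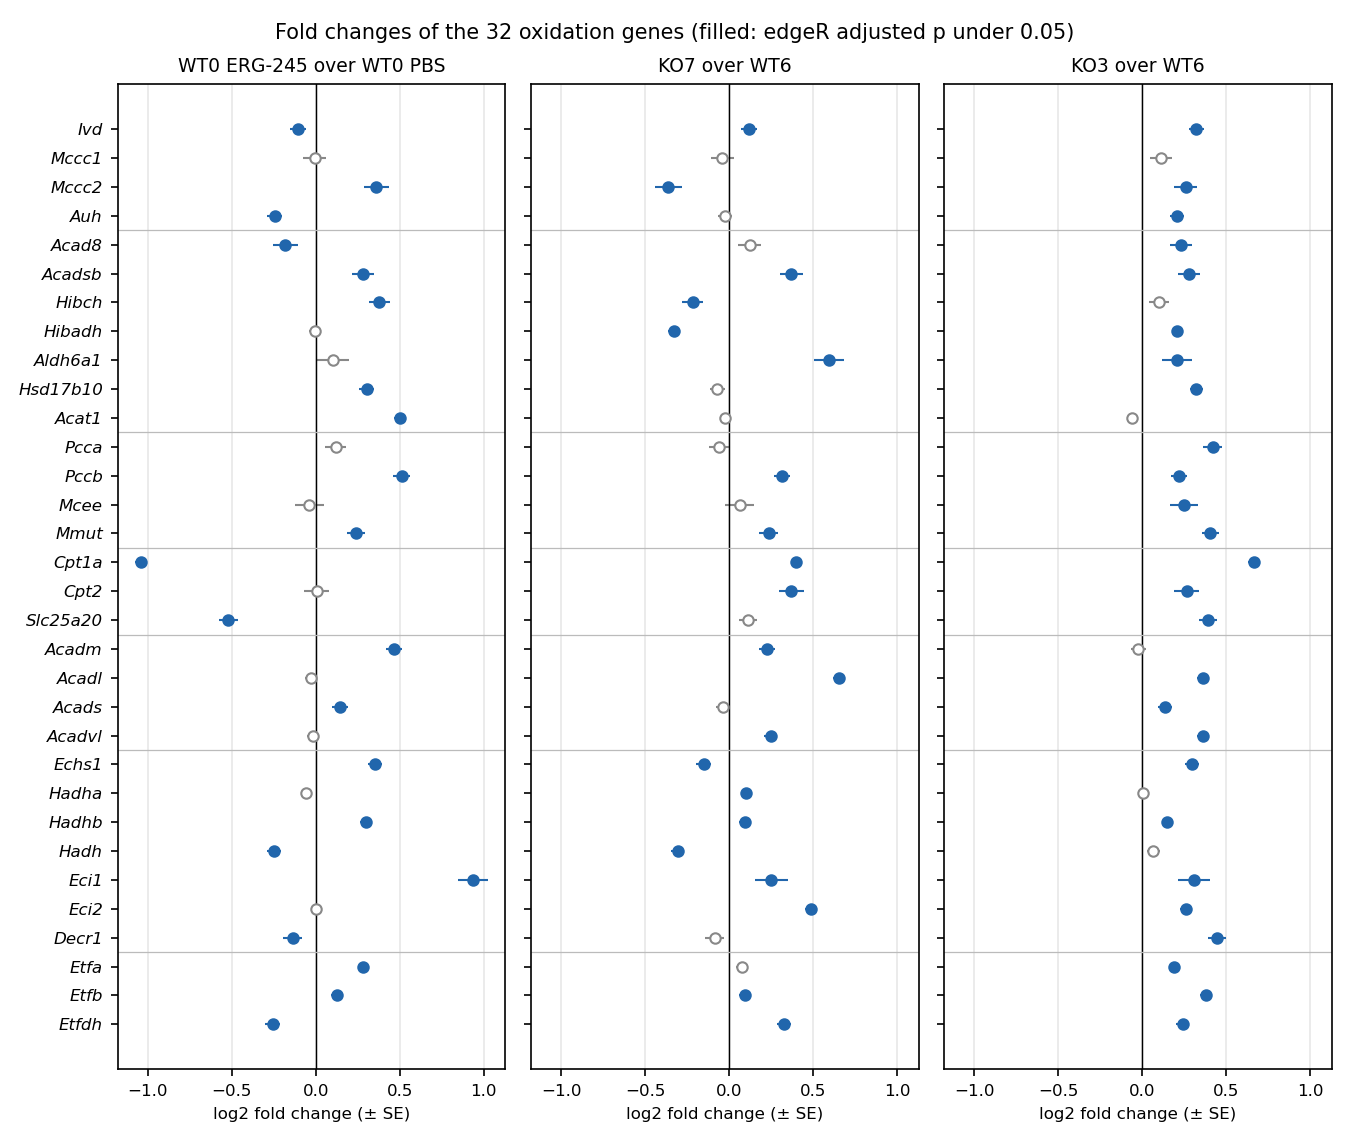
Log2 fold change with its standard error for each of the 32 genes (rows, grouped by role and separated by lines) in WT0 ERG-245 over WT0 PBS, KO7 over WT6 and KO3 over WT6; filled points passed edgeR's adjusted p under 0.05. With ERG-245, Cpt1a lies at -1.04 and Eci1 at 0.93, and in KO3 over WT6 every filled point lies right of 0.

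In the carnitine shuttle, Cpt1a had 133, 125 and 126 CPM in KO7, 153, 155 and 154 CPM in KO3 and 92.7, 99.1 and 101 CPM in WT6. Both knock-outs lay above WT6 in every library. The log2 fold changes against WT6 were 0.40 in KO7 (SE 0.033, edgeR adjusted p = 4.59e-18) and 0.66 in KO3 (SE 0.032, edgeR adjusted p = 9.19e-31). Slc25a20 was higher in KO3 (log2 0.39, edgeR adjusted p = 5.22e-10) and did not pass in KO7 (log2 0.11, edgeR adjusted p = 0.0669). Cpt2 was higher in both, by log2 0.37 in KO7 and 0.26 in KO3 (edgeR adjusted p = 1.22e-05 and 0.00145). WT0 with PBS, also Bcat1 wild type, had more Cpt1a than either knock-out, 180 to 183 CPM.

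Acadl, the long-chain acyl-CoA dehydrogenase (chromosome 1, 66830839 to 66863309, − strand), had 98.5, 99 and 106 CPM in KO7, 82, 82.6 and 82.8 CPM in KO3 and 65.9, 62.8 and 63.8 CPM in WT6. The 3 groups formed 3 separate steps, highest in KO7 (log2 0.66 over WT6, SE 0.036, edgeR adjusted p = 9.84e-28) and between in KO3 (log2 0.36, SE 0.036, edgeR adjusted p = 2.71e-14). Acadvl, the very-long-chain enzyme of the inner membrane, was higher by log2 0.25 in KO7 and 0.36 in KO3 (edgeR adjusted p = 1.31e-08 and 1.07e-14). Acadm was higher in KO7 (log2 0.22, edgeR adjusted p = 1.49e-05), with log2 -0.02 in KO3 (edgeR adjusted p = 0.678). Acads was higher in KO3 (log2 0.13, edgeR adjusted p = 0.00433) and had log2 -0.04 in KO7 (edgeR adjusted p = 0.455).

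Among the later steps, Eci2 had 132, 140 and 138 CPM in KO7, 114, 118 and 117 CPM in KO3 and 98.6, 97.4 and 96.2 CPM in WT6. It was again highest in KO7 (log2 0.49, SE 0.033, edgeR adjusted p = 8.83e-23), with log2 0.26 in KO3 (edgeR adjusted p = 1.3e-10). Decr1 had 24.6, 25.6 and 26.5 CPM in KO7, 36.4, 38 and 36.3 CPM in KO3 and 27.8, 26.3 and 27.2 CPM in WT6. KO3 stood apart from both other groups (log2 0.44 over WT6, SE 0.053, edgeR adjusted p = 1.98e-11), while KO7 overlapped WT6 (log2 -0.09, edgeR adjusted p = 0.182). Hadh had 59.9, 57.3 and 60.8 CPM in KO7, 75.3, 76.1 and 79.1 CPM in KO3 and 71.5, 72.5 and 76.6 CPM in WT6. KO7 was lower by log2 -0.31 (SE 0.04, edgeR adjusted p = 1.5e-10), and KO3 did not pass (log2 0.07, edgeR adjusted p = 0.123). Echs1 was lower in KO7 (log2 -0.15, edgeR adjusted p = 0.00172) and higher in KO3 (log2 0.29, edgeR adjusted p = 2.21e-09). Eci1 was higher by log2 0.25 in KO7 and 0.31 in KO3 (edgeR adjusted p = 0.0197 and 0.0035), and DESeq2 did not make the KO7 call. Hadhb was higher by log2 0.09 and 0.15 (edgeR adjusted p = 0.00927 and 3.18e-05). Hadha was higher in KO7 by log2 0.10 (edgeR adjusted p = 0.00223) and stood at log2 0.01 in KO3 (edgeR adjusted p = 0.878).

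Electron transfer genes were higher in KO3 throughout, Etfa by log2 0.19, Etfb by 0.38 and Etfdh by 0.24 (edgeR adjusted p = 9.99e-07, 2.82e-16 and 4.18e-07). In KO7, Etfdh was higher by log2 0.32 and Etfb by 0.10 (edgeR adjusted p = 8.35e-11 and 0.0155). Etfa had log2 0.07 there and did not pass (edgeR adjusted p = 0.0517).

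The leucine branch differed between the knock-outs. Mccc2 had 11.6, 12.3 and 11.5 CPM in KO7, 16.7, 18.6 and 18.9 CPM in KO3 and 15, 14.4 and 16 CPM in WT6. Against WT6 it was lower by log2 -0.36 in KO7 (SE 0.079, edgeR adjusted p = 4.85e-05) and higher by log2 0.26 in KO3 (SE 0.071, edgeR adjusted p = 0.00121). Its partner Mccc1 passed in neither, with log2 -0.04 in KO7 and 0.11 in KO3 (edgeR adjusted p = 0.616 and 0.133). Ivd was higher by log2 0.12 in KO7 and 0.32 in KO3 (edgeR adjusted p = 0.0239 and 4.68e-09), and DESeq2 did not make the KO7 call. Auh was higher in KO3 by log2 0.21 (edgeR adjusted p = 6.98e-06).

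In the valine branch, Hibadh, which oxidizes 3-hydroxyisobutyrate, had 74.8, 73.3 and 73.5 CPM in KO7, 109, 107 and 107 CPM in KO3 and 94.4, 93.3 and 90.9 CPM in WT6. The 3 groups were separate, with KO7 lowest (log2 -0.33 against WT6, SE 0.035, edgeR adjusted p = 2.03e-13) and KO3 highest (log2 0.21, SE 0.033, edgeR adjusted p = 7.59e-08). Aldh6a1, the semialdehyde dehydrogenase that makes propionyl-CoA, had 14.1, 16.1 and 12.9 CPM in KO7, 10.5, 11.8 and 10.5 CPM in KO3 and 10.2, 9.05 and 9.09 CPM in WT6. Here KO7 was the highest group (log2 0.60, SE 0.089, edgeR adjusted p = 1.32e-08), and the smaller change in KO3 was near the threshold (log2 0.21, SE 0.091, edgeR adjusted p = 0.0472). That KO3 call was not made by DESeq2, with no filter on low counts, or without any one of WT6 replicates 2 and 3 and KO3 replicate 2. Hibch had 20.4, 19.2 and 22.8 CPM in KO7, 26.2, 25.5 and 26 CPM in KO3 and 25.2, 24.1 and 23 CPM in WT6. KO7 was lower by log2 -0.22 (SE 0.062, edgeR adjusted p = 0.00166), and KO3 did not pass (log2 0.10, edgeR adjusted p = 0.138). Acad8 was called in KO3 (log2 0.23, edgeR adjusted p = 0.00173) and had log2 0.12 in KO7 (edgeR adjusted p = 0.109). Acadsb was higher in KO7 by log2 0.37 and in KO3 by 0.28 (edgeR adjusted p = 8.89e-07 and 0.000143). Hsd17b10 was higher in KO3 by log2 0.32 (edgeR adjusted p = 7.95e-11) and had log2 -0.07 in KO7 (edgeR adjusted p = 0.143). Acat1 passed in neither, with log2 -0.03 in KO7 and -0.06 in KO3 (edgeR adjusted p = 0.445 and 0.0837).

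All 4 genes of the propionyl-CoA branch were higher in KO3, with summed levels of 107 to 113 CPM in KO7, 122 to 124 CPM in KO3 and 97.1 to 97.8 CPM in WT6. Pcca had 23.9, 22 and 23.4 CPM in KO7, 32.6, 30.8 and 33.2 CPM in KO3 and 24.5, 24.3 and 23.4 CPM in WT6. Only KO3 stood apart among these groups (log2 0.42, SE 0.056, edgeR adjusted p = 8.58e-10), and KO7 overlapped WT6 (log2 -0.06, edgeR adjusted p = 0.384). Mmut had 33.5, 32.7 and 34 CPM in KO7, 38, 37.6 and 37.2 CPM in KO3 and 28.3, 28.8 and 28 CPM in WT6. WT6 was lowest in every library, with log2 0.24 for KO7 and 0.40 for KO3 (edgeR adjusted p = 0.000123 and 2.9e-10). Pccb was higher by log2 0.32 in KO7 and 0.22 in KO3 (edgeR adjusted p = 2.4e-08 and 5.1e-05). Mcee was higher in KO3 by log2 0.25 (edgeR adjusted p = 0.00654) and did not pass in KO7 (log2 0.06, edgeR adjusted p = 0.519).

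**Figure D3:**
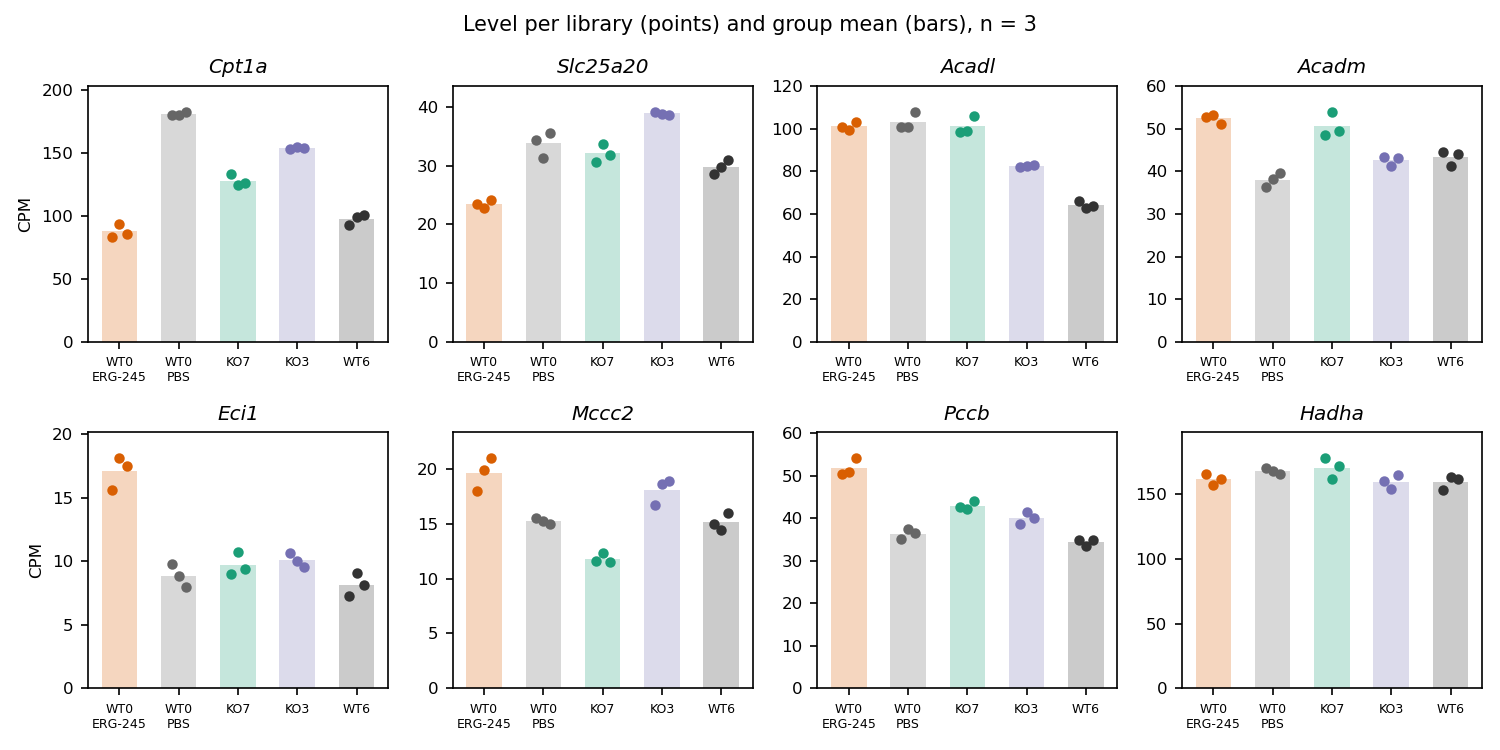
Levels in CPM of 8 oxidation genes in each of the 15 libraries (points) with group means (bars, n = 3 libraries), axes starting at 0. Cpt1a ranges from 83.5 CPM in a WT0 ERG-245 library to 183 CPM in a WT0 PBS library, while Hadha lies between 153 and 178 CPM in every library.

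Transcripts of other cells differed beside these comparisons. Erythroid markers took 5.13% to 5.28% of counts in KO7 libraries, 1.02% to 1.08% in KO3 libraries and 1.09% to 1.25% in WT6 libraries. All 12 were higher in KO7 than in WT6, while in KO3 5 were higher and 3 lower. Macrophage and monocyte markers took 0.337% to 0.339% in KO7, 0.148% to 0.149% in KO3 and 0.197% to 0.207% in WT6, with 9 of 11 higher and 2 lower in KO7, and 1 higher and 8 lower in KO3. Plasma cell markers took 0.41% to 0.415% in KO7, 0.3% to 0.305% in KO3 and 0.877% to 0.912% in WT6, with 5 of 6 lower and 1 higher in each knock-out. Markers of the leukemic T cells themselves took 0.737% to 0.751% in KO7, 0.744% to 0.752% in KO3 and 0.868% to 0.88% in WT6. Of these 12, 9 were lower and 3 higher in KO7, and 7 were lower and 4 higher in KO3. All 8 neutrophil markers and 8 of 9 B cell markers were lower in each knock-out. No marker of these lists was at 0. Their part in the members' values was not tested. General mitochondrial content genes were higher in 7 and lower in 7 of 18 in KO7, and higher in 16 and lower in 1 of 18 in KO3.

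A second wild-type leukemia, WT0 with PBS, gave another view of the same knock-outs. These comparisons share the WT0 PBS libraries with each other, and the knock-out libraries with those above. In KO7 against WT0 with PBS, edgeR called 10 members higher (34.5% of all genes) and 6 lower (34.9%), with a members' median log2 of 0.00. The libraries of 17 members did not overlap (70.7% of all genes). In KO3 against WT0 with PBS it called 20 higher (34.1%) and 3 lower (32.4%), with a members' median of 0.17, and 26 members without overlap (68.6%). WT6 against WT0 with PBS, both Bcat1 wild type, had 10 members higher (36.8%) and 12 lower (35.6%), with a members' median of -0.08, and 24 members without overlap (74.1%). Of genes of at least 5 CPM, 38.2% were higher in KO7, 41.9% in KO3 and 41.4% in WT6. Lower were 39.3%, 34.9% and 38.8% of them, in the same order. Erythroid markers took 3.59% to 3.71% of counts in WT0 with PBS, with 10 of 12 higher and 2 lower in KO7 and all 12 lower in KO3 and in WT6. Macrophage and monocyte markers took 0.111% to 0.113% in WT0 with PBS. Of these 11, 10 were higher and 1 lower in KO7, 7 and 3 in KO3, and 8 and 1 in WT6. Of 9 B cell markers, 0 were higher and 9 lower in KO7, 0 and 6 in KO3, and 5 and 2 in WT6. Of 6 platelet markers, 0 were higher and 6 lower in KO7, 0 and 3 in KO3, and 2 and 2 in WT6. All 8 neutrophil markers were higher in KO7, KO3 and WT6. Plasma cell markers were higher in 4 of 6 and lower in 1 in KO7, and higher in all 6 in KO3 and in WT6. Leukemic T cell markers were higher in 7 and lower in 5 of 12 in KO7, 8 and 3 in KO3, and 8 and 4 in WT6. Genes of mitochondrial content were higher in 7 and lower in 5 of 18 in KO7, 16 and 0 in KO3 (median log2 0.26) and 8 and 6 in WT6. The part of these lists was not tested. The wild-type groups differed from each other in 22 members (72.5% of all genes were called in either direction), while 21 were called in KO7 (68.9% of all genes) and 26 in KO3 (59.7% of all genes) against WT6.

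Cpt1a was lower than in WT0 with PBS in all 3, by log2 -0.50 in KO7, -0.23 in KO3 and -0.90 in WT6 (edgeR adjusted p = 8.29e-24, 2.75e-10 and 8.97e-40). Its direction in the knock-outs therefore depended on the wild type chosen. Acadl had 101, 101 and 108 CPM in the WT0 PBS libraries, a range that the KO7 libraries overlapped (log2 -0.03, edgeR adjusted p = 0.435), whereas KO3 and WT6 lay below (log2 -0.33 and -0.69, edgeR adjusted p = 2.32e-13 and 1.51e-29). Acat1, at 87.7 to 91.5 CPM in WT0 with PBS, was higher in KO7, KO3 and WT6 by log2 0.51, 0.48 and 0.54 (edgeR adjusted p = 9.8e-24, 1.35e-22 and 3.48e-26). WT0 with PBS was the group that stood apart for this gene, with all others between 123 and 134 CPM.

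Acads had 53.9, 49.7 and 53.5 CPM in KO7, 60.1, 57.6 and 59.3 CPM in KO3, 53.1, 53.3 and 55.2 CPM in WT6 and 43.6, 41.8 and 43.6 CPM in WT0 with PBS. WT0 with PBS was lowest without overlap, with log2 0.29, 0.46 and 0.32 for KO7, KO3 and WT6 (edgeR adjusted p = 9e-08, 4.86e-15 and 5.93e-10). Acadm was higher than in WT0 with PBS by log2 0.42 in KO7, 0.17 in KO3 and 0.19 in WT6 (edgeR adjusted p = 6.72e-12, 0.00209 and 0.000266). Eci2 and Aldh6a1 were higher in KO7 against this wild type as well, by log2 0.39 and 0.43 (edgeR adjusted p = 1.39e-17 and 2.37e-05). Hibadh had 76.3, 79.5 and 75.7 CPM in WT0 with PBS. It was higher in KO3 (log2 0.47, edgeR adjusted p = 7.1e-21) and in WT6 (log2 0.27, edgeR adjusted p = 1.25e-10), and did not pass in KO7 (log2 -0.06, edgeR adjusted p = 0.123).

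Hsd17b10 had 67.3, 67 and 69.2 CPM in KO3 and 48.8, 50.3 and 49.6 CPM in WT0 with PBS (log2 0.45, SE 0.042, edgeR adjusted p = 6.16e-16). The groups did not overlap. Xist stood at 212 CPM in KO3 and 4370 CPM in WT0 with PBS beside this X-linked gene, and its part was not tested. Ivd had 45.3, 51.3 and 45.8 CPM in KO7 and 52.1, 55.7 and 52.3 CPM in WT0 with PBS (log2 -0.17, SE 0.048, edgeR adjusted p = 0.00103), a narrow gap between the nearest libraries. Decr1 and Mccc2 were lower in KO7, by log2 -0.40 and -0.38 (edgeR adjusted p = 6.24e-09 and 3.85e-05). In the WT0 PBS libraries Decr1 had 33.4, 33.6 and 34.2 CPM, and Mccc2 had 15.5, 15.3 and 15 CPM. Hadha had 160, 154 and 165 CPM in KO3 and 170, 168 and 166 CPM in WT0 with PBS, so that the nearest libraries were 165 and 166 CPM (log2 -0.07, SE 0.03, edgeR adjusted p = 0.0256); DESeq2 did not call it. Cpt2 had 15.7, 15.6 and 13.3 CPM in WT6 and 19.2, 19.1 and 19.7 CPM in WT0 with PBS, with WT6 lower in every library (log2 -0.37, SE 0.073, edgeR adjusted p = 5.38e-06).

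Because the libraries of a group share a leukemia number, their counts were added up to give 1 sample per leukemia, and genotypes were then compared over 2 knock-out samples (KO7, KO3) and 2 wild-type samples (WT6, WT0 with PBS). edgeR called 0 members and 0% of the 17226 genes tested in this fit, which had 2 residual degrees of freedom. At an unadjusted p under 0.05 there were 0 members, and 105 genes higher and 121 lower in all. DESeq2 called 0 members, and 21 genes higher and 25 lower. edgeR's biological coefficient of variation was 2.18% over libraries and 41.9% over leukemias. For 8 members (Acad8, Acadsb, Aldh6a1, Pccb, Hadhb, Eci1, Eci2 and Etfb) both knock-out means lay above both wild-type means, as was the case for 9.12% of all genes tested. For 0 members both lay below (10.8% of all genes). The largest log2 differences of these 8 were 0.35 for Aldh6a1 (SE 0.34) and 0.34 for Eci2 (SE 0.18), whose unadjusted p-values were 0.355 and 0.117 by edgeR.

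KO3 was also set against KO7 directly, which tests whether the knock-outs differed in their changes against WT6. edgeR called 18 members higher in KO3 (36.1% of all genes) and 5 lower (34.6%), with a members' median log2 of 0.16, and 26 members did not overlap (72.0%). Of genes of at least 5 CPM, 42.2% were higher and 35.7% lower. Of the leucine branch, Mccc2, Auh and Ivd were higher in KO3, and a call for Mccc1 (log2 0.15, edgeR adjusted p = 0.0455) was not made by DESeq2, with other size factors, with no filter, with a replicate block or with the 2 groups alone. Mccc2, Hibadh, Decr1 and Pcca had the largest increases, by log2 0.62, 0.54, 0.53 and 0.48 (edgeR adjusted p = 1.27e-10, 3.12e-23, 2.43e-13 and 6.51e-11). Aldh6a1, Acadl, Acadm and Eci2 were lower in KO3, by log2 -0.39, -0.30, -0.25 and -0.23 (edgeR adjusted p = 8.99e-05, 1.52e-11, 3.8e-06 and 3.78e-09). For Acadm the KO3 libraries had 43.4, 41.3 and 43.2 CPM and the KO7 libraries 48.6, 54 and 49.5 CPM, with no overlap. Erythroid markers moved beside this contrast, with all 12 lower in KO3. Macrophage and monocyte markers were lower in 9 of 11 and higher in 1, B cell markers were higher in 8 of 9, and neutrophil markers were higher in 7 of 8. Genes of mitochondrial content were higher in 14 of 18 and lower in 1 (median log2 0.22). The part of these lists was not tested.

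Summed over all 32 genes, the members took 1824 to 1825 CPM in WT0 with ERG-245, 1789 to 1811 CPM in WT0 with PBS, 1832 to 1850 CPM in KO7, 1982 to 1997 CPM in KO3 and 1690 to 1698 CPM in WT6. The ranges of the 5 groups did not overlap. The carnitine shuttle spread most, at 177 to 183 CPM in KO7, 209 to 213 CPM in KO3 and 137 to 145 CPM in WT6. The valine and isoleucine branch summed to 342 to 349 CPM with ERG-245 and 284 to 291 CPM with PBS in WT0, and to 333 to 336 CPM in KO7, 381 to 386 CPM in KO3 and 345 to 356 CPM in WT6. The later steps of the spiral summed to 539 to 555 CPM with ERG-245 and 519 to 531 CPM with PBS.

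**Figure D4:**
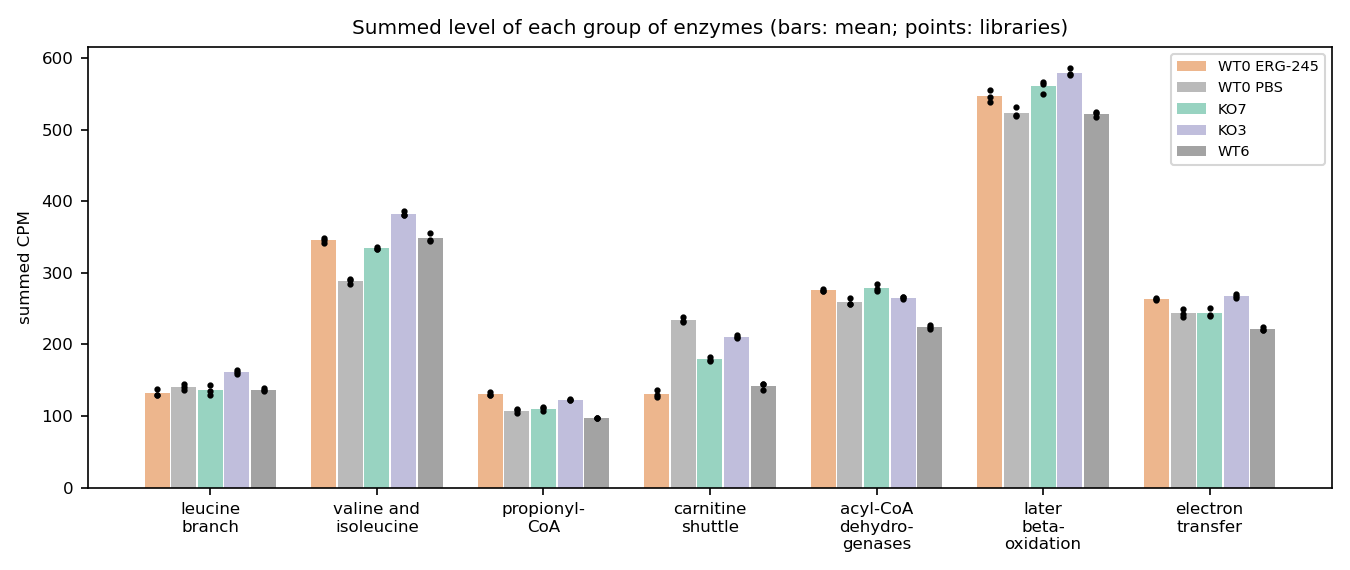
Summed CPM of the members in each of 7 enzyme groups, as group means (bars, n = 3 libraries) with the libraries as points. The carnitine shuttle is lowest in WT0 with ERG-245 (126 to 136 CPM) and highest in WT0 with PBS (231 to 238 CPM).

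Subunits of 1 enzyme did not keep a fixed ratio of counts. Hadhb over Hadha was 0.748 ± 0.0206 in WT0 with ERG-245 and 0.585 ± 0.00702 in WT0 with PBS (SD, n = 3). In KO7 it was 0.67 ± 0.00702, in KO3 0.744 ± 0.0384 and in WT6 0.673 ± 0.0355. The ERG-245 and PBS libraries did not overlap, whereas KO7 overlapped WT6. Mccc2 over Mccc1 was 1.0 ± 0.14 with ERG-245 and 0.774 ± 0.0304 with PBS, and 0.632 ± 0.0442 in KO7, 0.872 ± 0.0675 in KO3 and 0.794 ± 0.0773 in WT6. KO7 was lowest and overlapped no other group. Pcca over Pccb was 0.509 ± 0.0327 with ERG-245 and 0.666 ± 0.0723 with PBS, and 0.538 ± 0.0195 in KO7, 0.804 ± 0.0544 in KO3 and 0.699 ± 0.0265 in WT6, so that KO7 and KO3 lay on opposite sides of WT6. Etfb over Etfa was 0.666 ± 0.0163 with ERG-245 and 0.744 ± 0.0208 with PBS. In KO7 this ratio was 0.885 ± 0.0899, in KO3 0.991 ± 0.0424 and in WT6 0.868 ± 0.0156, and KO7 overlapped both KO3 and WT6. Etfdh over Etfa, which are not subunits of 1 enzyme, was 0.404 ± 0.02 with ERG-245, the lowest of the 5 groups, and 0.588 ± 0.0199 with PBS. These ratios are of counts, which also depend on exon length, and were not tested.

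**Figure D5:**
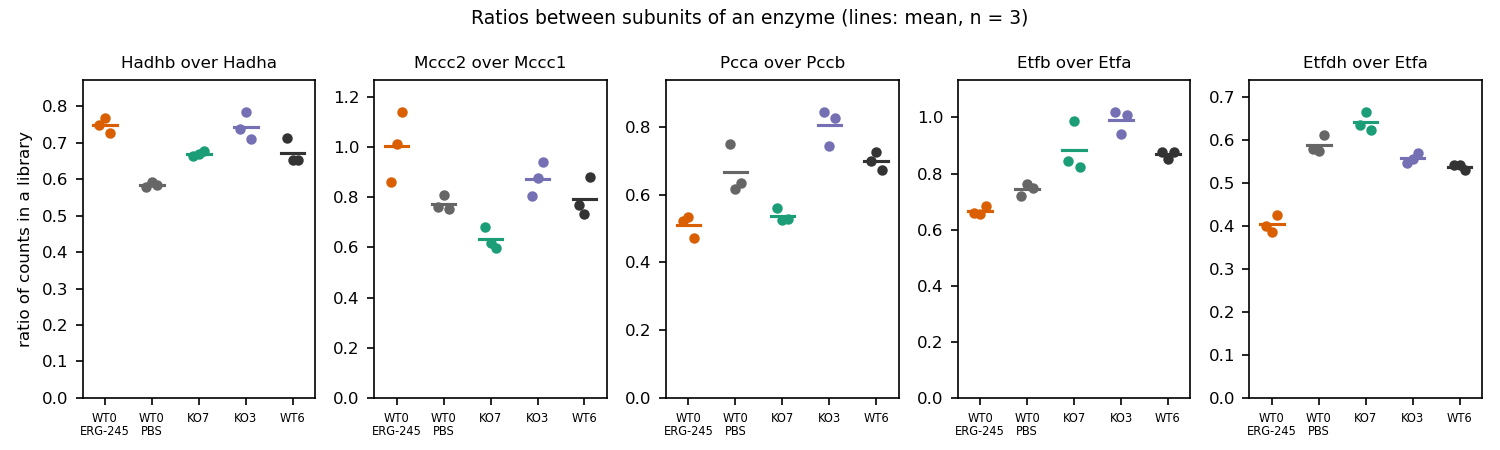
Ratio of counts between subunits or partners of an enzyme in each library (points) with group means (lines, n = 3), axes starting at 0. Hadhb over Hadha is 0.726 to 0.767 in WT0 with ERG-245 and 0.578 to 0.592 in WT0 with PBS, and Mccc2 over Mccc1 is lowest in KO7.

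Other genes around these routes gave mixed counts. Of 9 genes of the proximal branched-chain steps, Bcat1 among them, 5 were higher and 2 lower with ERG-245, 3 and 3 in KO7 against WT6, and 5 and 1 in KO3 against WT6. Bcat2, the mitochondrial aminotransferase, averaged 77.1 ± 1.93 CPM with ERG-245 and 54.3 ± 1.27 CPM with PBS (log2 0.50, edgeR adjusted p = 5.21e-19). Bckdha, a subunit of the keto acid dehydrogenase, averaged 52.4 ± 1.48 CPM in KO3 and 35.1 ± 1.43 CPM in WT6 (log2 0.58, edgeR adjusted p = 2.76e-19). Bcat1 was lower in KO7 and KO3 than in WT6, by log2 -4.07 and -2.34 (edgeR adjusted p = 8.9e-49 and 6e-41). Against WT0 with PBS it was lower by log2 -3.09 in KO7 and -1.35 in KO3 (edgeR adjusted p = 1.67e-36 and 3.16e-23), with 6.95 ± 0.845 CPM remaining in KO3 and 17.8 ± 0.955 CPM in WT0 with PBS.

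Of 15 other mitochondrial acyl-CoA and ketone body enzymes, 6 were higher and 2 lower with ERG-245, 8 and 3 in KO7, and 11 and 2 in KO3. In KO7 and KO3 the shares higher were above those of all genes, 32.2% and 27.7%. Acaa2, a mitochondrial thiolase of the spiral, averaged 192 ± 4.97 CPM in KO3 and 89.7 ± 3.14 CPM in WT6 (log2 1.10, edgeR adjusted p = 2.25e-45).

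Of 18 tested genes of fatty acid uptake, activation and carnitine, 8 were higher and 5 lower with ERG-245, 7 and 6 in KO7, and 6 and 5 in KO3. Fabp5, a fatty acid binding protein, averaged 204 ± 1.32 CPM with ERG-245 and 57.4 ± 1.45 CPM with PBS (log2 1.83, edgeR adjusted p = 3.27e-59). Cd36, a fatty acid transporter also made by macrophages and red cell precursors, averaged 230 ± 6.22 CPM in KO7 and 54.2 ± 0.465 CPM in WT6 (log2 2.08, edgeR adjusted p = 1.08e-62). Acsl1, which activates long-chain fatty acids, averaged 101 ± 1.02 CPM in KO7 and 28.9 ± 1.33 CPM in WT6 (log2 1.81, edgeR adjusted p = 1.04e-52).

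Peroxisomal oxidation genes, 16 of them tested, were higher in 3 and lower in 3 with ERG-245, 5 and 3 in KO7, and 6 and 4 in KO3. Of 17 tested regulators of oxidation, 3 were higher and 7 lower with ERG-245, 5 and 9 in KO7, and 3 and 7 in KO3. Their log2 values ran from -2.05 to 0.27 with ERG-245, -3.36 to 0.97 in KO7 and -0.40 to 0.71 in KO3. Nrip1, a corepressor of nuclear receptors, averaged 171 ± 3.51 CPM in KO3 and 104 ± 3.78 CPM in WT6 (log2 0.71, edgeR adjusted p = 6.27e-35). Among 8 tested genes from a list of PPAR targets, 3 were higher and 5 lower with ERG-245, 5 and 1 in KO7, and 4 and 3 in KO3. Ucp2, a carrier of the inner mitochondrial membrane, averaged 1420 ± 16 CPM in KO7, 667 ± 13.3 CPM in KO3 and 806 ± 20.6 CPM in WT6. It was higher in KO7 (log2 0.82, edgeR adjusted p = 3.23e-47) and lower in KO3 (log2 -0.27, edgeR adjusted p = 4.4e-18).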

How the data were processed

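RNA-seq counts of 15 libraries were analysed. The deposited table gives raw counts of fragments per gene. Its other unit, the merged exon length of a gene in bases, served only for levels per kb. Per the file headers, counting by the authors used featureCounts 2.0.1 on paired fragments with both ends mapped, without chimeric fragments, with a minimum overlap of 25 bases and strand setting 2, over exons of RefSeq GRCm38.p6. Per the submitters' processing notes, Trim Galore, STAR, Subread, DESeq2 and mm10 were used, without settings. Lines of 3 genes were broken and left out, and 39743 of 39827 gene IDs had a symbol in the reference annotation. No value column belonged to another series.

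Counts were fitted with edgeR 4.0.16 in R 4.3.3 (filterByExpr by group, TMM, 1 quasi-likelihood fit over 15 libraries, 10 residual degrees of freedom), and p-values were adjusted by Benjamini-Hochberg over all 15948 genes tested. Levels are CPM on TMM-scaled totals, with mean ± SD. Fold changes are log2 values, first group over second. DESeq2 1.42.0, RLE size factors, no filter, a replicate block, fits of each pair of groups alone and leaving out each library were alternatives. Each of the 7 comparisons has values in every library for up to 4 members per direction, those with the largest fold change among called members of at least 5 CPM without overlap, and each other list has up to 2 genes by smallest p. Some of these gene values are left to the counts of their list. The members, the lists and the rules were chosen with earlier results of these data known. Replicate numbers did not pair libraries.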

Additional observations from a re-analysis of the deposited data

Results flagged for a closer look

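The knock-out leukemias differed from each other in their changes against WT6, by edgeR's test of KO3 against KO7, for 23 of the 32 genes (70.7% of all genes tested were called in either direction). In the number called, the list as a whole therefore did not stand out. The difference, KO3 minus KO7 on the log2 scale, was positive for 18 genes: Mccc2 0.62, Hibadh 0.54, Decr1 0.53, Pcca 0.48, Echs1 0.45, Hsd17b10 0.39, Hadh 0.37, Hibch 0.32, Etfb 0.28, Slc25a20 0.28, Cpt1a 0.26, Auh 0.23, Ivd 0.20, Acads 0.17, Mmut 0.17, Mccc1 0.15, Acadvl 0.12 and Etfa 0.12. It was negative for 5 genes: Aldh6a1 -0.39, Acadl -0.30, Acadm -0.25, Eci2 -0.23 and Hadha -0.10. Against WT6, Mccc2, Hibadh and Echs1 were called lower in KO7 and higher in KO3. The call for Mccc1 (edgeR adjusted p = 0.0455) was not made by DESeq2 or under the other settings that keep all libraries. Erythroid markers took 1.05% of counts in KO3 and 5.22% in KO7, and their part in these differences was not tested. Knock-out clone and any other difference between the leukemias cannot be told apart, since each is taken as 1 leukemia.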

How the results depend on the processing

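Apart from single calls, the counts of members held under RLE size factors, no filter, DESeq2, fits of 2 groups alone and single libraries left out. With DESeq2, 5 members instead of 8 were lower with ERG-245 (Ivd, Acad8 and Decr1 did not pass); the cause was not tested. Leaving out each library in turn gave 13 to 15 members higher and 6 to 7 lower with ERG-245, 14 to 17 and 5 in KO7 against WT6, and 25 to 26 and 0 to 1 in KO3 against WT6. Without WT6 replicate 2, Acat1 was called lower in KO3 in addition. Against WT0 with PBS these ranges were 10 to 11 and 5 to 7 in KO7, 17 to 21 and 2 to 4 in KO3, and 9 to 10 and 11 to 13 in WT6. For KO3 against KO7 they were 17 to 19 and 4 to 6. Single calls were lost as follows. With ERG-245, leaving out a library ended calls for Ivd, Acad8, Decr1 or Acads, and other size factors ended that for Ivd. In KO7 against WT6, DESeq2 did not call Ivd and Eci1, and leaving out a library ended calls for Ivd, Eci1, Hadha, Hadhb or Etfb. In KO3 against WT6, Aldh6a1 was not called by DESeq2, with no filter, or without WT6 replicate 2, WT6 replicate 3 or KO3 replicate 2, and leaving out other libraries ended calls for Eci1 or Cpt2. Against WT0 with PBS, DESeq2 did not call Hadha and Decr1 in KO3 and Hibch in WT6, and with no filter Decr1 and Hibch were not called. Leaving out a library there ended calls for Etfa in KO7, for Hadha, Decr1, Pccb or Acadsb in KO3, and for Hibch, Hadha or Eci2 in WT6. For KO3 against KO7, Mccc1 was not called under any of the 5 settings that keep all libraries, and leaving out a library ended calls for Mccc1, Hadha or Etfa. No call turned round in any of these fits. On counts summed per leukemia, 0 members passed in each of 3 alternatives.

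Replicate numbers did not mark pairs: deviations of same-numbered libraries correlated between -0.046 and 0.032 over 30 pairs of libraries. With a replicate block, 21 of the 22 members called with ERG-245 were called again (not Ivd), 26 of 26 in KO3 against WT6, and Etfa was called in addition to 21 in KO7 against WT6. For KO3 against KO7, Mccc1 was not called, and Mcee and Etfdh were.

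The comparison of genotypes has 2 leukemias per genotype, and members had at least 138 counts in each library.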
